A study of Mus musculus with 36 samples.

Results

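CpG-poor promoters of protein-coding genes were examined in mouse liver by whole-genome bisulfite sequencing, in which unmethylated cytosines are converted and methylated cytosines are read as C. A promoter was the set of CpGs within 500 bp on either side of the annotated start of a protein-coding transcript (mm9, autosomes), and start sites with the same CpGs were taken as 1 promoter. It was CpG-poor with 3 to 10 CpGs and was kept with at least 30 counts in each animal. Of 44025 start sites, 7406 had 3 to 10 CpGs, 35258 had more and 1361 had fewer. The 7406 start sites formed 6752 promoters, of which 361 fell below the count minimum, leaving 6391 promoters (7011 start sites, 5338 genes) among 38273 promoters of any CpG number from 3 upwards. Of the 6391, 752 shared a CpG with another, so neighbouring start sites of a gene were not independent.

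The animals were 24 mice of 8 groups with 3 animals each. Sires and dams came from a pair of inbred strains, C57BL/6N (here B6) and C3H/HeN (here C3), and were mated at 10 weeks of age, their litters were weaned at week 16 and the parents were killed at 20 weeks. Male and female offspring of both crosses, B6C3F1 (B6 dam, C3 sire) and C3B6F1 (C3 dam, B6 sire), were killed at 20 weeks. The daughters had not been bred, and whether the sons had is not given in the sources used here. Per the study's methods each cross was sampled as 3 families of sire, dam, son and daughter, so dams were mothers of the daughters they are compared with, while the labels do not tie an animal to its family and each animal was treated as independent. Dams therefore differed from sires in sex and in having borne young, and from daughters in having borne young, in being inbred and in generation. Per the study's methods, breeders were also caged alone outside mating, whereas offspring shared cages with others of their sex. Such differences cannot be told apart in either comparison. The samples were pieces of whole liver, in which a methylation level is a mean over all cells, so that a change in the cells present and a change within cells cannot be told apart.

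Promoters fall into 2 broad kinds. CpG-rich promoters, typical of genes used in most cells, are mostly free of methylation whether or not the gene is active, whereas CpG-poor promoters tend to belong to genes used in few tissues and tend to carry methylation where the gene is silent. In hepatocytes, which make most plasma proteins and most enzymes of drug, steroid and bile acid metabolism, many of the genes with the highest activity start at CpG-poor promoters. A further set of such genes is set by the pulsed (male) or steady (female) release of growth hormone, and so differs between the sexes.

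Counts on autosomal CpGs ranged from 365740739 to 619888157 per animal, and the median CpG-poor promoter had 186 counts per animal (29.6 reads per CpG). The median SD between animals of a group was 3.14 percentage points, against 2.87 points for counting error alone at the same depth. The latter takes each count as independent, although a read can count at several CpGs. No 2 animals of a group had identical values. The median methylation over the 6391 promoters lay between 78.5% and 81.1% in every animal. It was 79.0% ± 0.519 in B6 parents and 80.3% ± 0.661 in C3 parents (SD, n = 6 each; two-sided exact permutation test, p = 0.00866, adjusted over 4 comparisons p = 0.0346), and the 2 ranges overlapped. Sires were at 80.2% ± 0.892 and dams at 79.2% ± 0.651 (exact permutation p = 0.0584), a test that counts the strain difference as spread. Within B6 the sires were at 79.0% to 79.8% and the dams at 78.5% to 78.7%, and within C3 they were at 80.6% to 81.1% and 79.6% to 79.8%, so that the sires lay above the dams in each strain. With labels permuted within strain, which was added after the data were seen, the exact p was 0.005 (adjusted over 3 comparisons p = 0.0075), the smallest it can give. Dams against daughters (exact permutation p = 0.437) and sons against daughters (exact permutation p = 0.113, or 0.055 within crosses) did not pass the test, where the smallest p with all 12 animals permuted is 0.00216.

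The stretches of 250 bases before the start of 5 promoters are shown first, because the results below turn on them or because they mark the ends of the range. Each is given 5′ to 3′ in mm9 on the strand that reads as the transcript, with its CpGs in capitals. Clec3b (tetranectin, a plasminogen-binding plasma protein; chr9:123059814-123060063, + strand) had the largest difference of the promoters higher in B6 than in C3. Cyp3a41b (chr5:146345600-146345849, - strand) and Cyp2b13 (chr7:26846264-26846513, + strand), both cytochromes P450 of the female liver, had the largest difference of the promoters higher in sires than in dams and the largest between F1 sons and daughters, respectively. Pnliprp1 (chr19:58803127-58803376, + strand) and Ctrb1 (chr8:114214911-114215160, - strand), a lipase-related protein and chymotrypsinogen of the exocrine pancreas, were the least and the most methylated of the pancreas genes. The second CpG in capitals of the Clec3b stretch is not among the CpGs of the count files.
Clec3b: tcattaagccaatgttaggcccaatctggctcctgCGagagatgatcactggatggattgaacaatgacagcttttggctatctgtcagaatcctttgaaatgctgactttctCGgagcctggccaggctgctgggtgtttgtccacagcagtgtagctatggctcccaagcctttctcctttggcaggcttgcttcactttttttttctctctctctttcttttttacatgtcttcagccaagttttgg
Cyp3a41b: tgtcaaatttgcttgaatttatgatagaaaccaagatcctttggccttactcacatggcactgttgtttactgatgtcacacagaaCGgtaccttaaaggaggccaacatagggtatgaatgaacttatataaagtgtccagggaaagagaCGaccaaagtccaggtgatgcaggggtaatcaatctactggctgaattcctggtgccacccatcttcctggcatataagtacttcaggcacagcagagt
Cyp2b13: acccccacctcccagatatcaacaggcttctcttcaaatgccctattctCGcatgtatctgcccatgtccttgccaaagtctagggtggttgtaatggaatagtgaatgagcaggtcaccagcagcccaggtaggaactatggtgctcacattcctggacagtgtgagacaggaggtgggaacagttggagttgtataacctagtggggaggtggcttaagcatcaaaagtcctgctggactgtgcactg
Pnliprp1: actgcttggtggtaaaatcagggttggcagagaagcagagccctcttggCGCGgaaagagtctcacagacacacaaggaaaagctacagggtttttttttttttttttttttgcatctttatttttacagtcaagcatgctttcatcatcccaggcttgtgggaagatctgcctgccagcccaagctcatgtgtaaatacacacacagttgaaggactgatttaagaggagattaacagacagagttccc
Ctrb1: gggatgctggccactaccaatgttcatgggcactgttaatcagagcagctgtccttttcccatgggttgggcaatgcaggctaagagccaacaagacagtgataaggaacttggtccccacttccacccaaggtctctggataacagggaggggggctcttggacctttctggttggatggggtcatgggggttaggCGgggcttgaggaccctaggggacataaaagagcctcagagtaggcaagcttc

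Few CpG-poor promoters were unmethylated in liver. The mean over the 24 animals was below 20% at 239 of 6391 promoters (3.74%, 196 genes), between 20% and 80% at 3036 (47.5%) and at or above 80% at 3116 (48.8%). The median was 79.5% and the quartiles were 67.5% and 87.9%. CpG-rich promoters had a median of 3.16%, and 22852 of 31882 (71.7%) were below 20%. The share below 20% was 1.35% with 3 CpGs, 2.91% with 6 and 5.92% with 10, and went on to 4.82% with 11 and 9.20% with 15 CpGs, so that no step stood at the limit of 10. The distribution of promoter methylation shows this contrast. Nearest to the threshold, the highest mean below 20% was 19.99% and the lowest above it 20.08%. Of the 239 promoters, 103 were below 20% in each of the 24 animals, and 183 to 305 promoters were below 20% in a single animal.

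**Figure D1:**
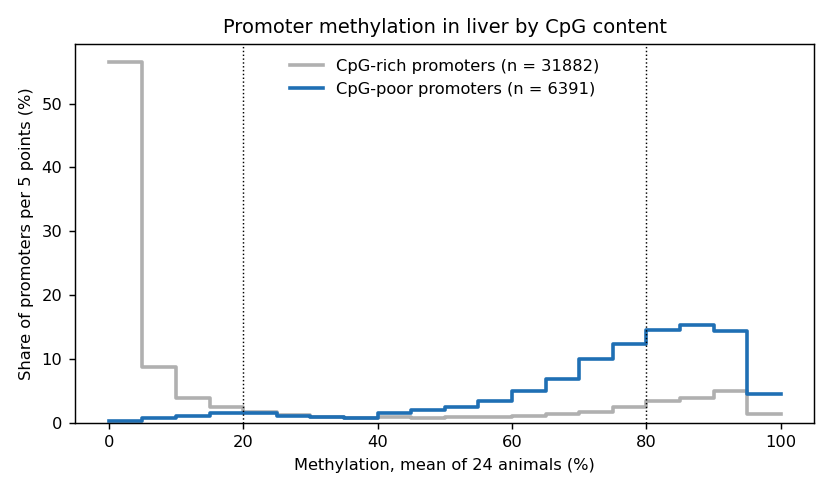
Share of promoters (y axis, % per 5 points) against methylation averaged over 24 animals (x axis, %), for 6391 CpG-poor (blue) and 31882 CpG-rich promoters (grey). Dotted lines mark 20% and 80%. The CpG-poor promoters lie mostly above 60%, with a low tail below 30%, and the CpG-rich promoters lie mostly below 5%.

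Of the 239 unmethylated CpG-poor promoters, 73 (30.5%) belonged to at least 1 of 3 lists of liver genes, against 200 of all 6391 (3.13%). Promoters of the same gene are counted apart here (the 239 are of 196 genes). All lists were chosen with earlier results of these data known, so that the shares are a description. The lists were secreted hepatocyte proteins (33), metabolic enzymes and transporters of the liver (17) and families of drug and steroid metabolism (23). None of the 239 belonged to the lists of leukocyte, Kupffer and endothelial, pancreas, muscle, keratin, chemosensory, defensin, milk protein or germ cell genes. Unmethylated CpG-rich start sites lay close to some of them. Within 2000 bp of such a start site were 49 of the 239 (20.5%), against 97 of the 3036 partly methylated (3.19%) and 85 of the 3116 methylated promoters (2.73%). Of the 239, 128 (53.6%) stood at the most upstream start site of their gene, close to the 56.3% of all 6391.

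The 3 lowest promoters of all were those of Mafg, a small Maf transcription factor (0.941%, with a range of 0% to 2.52% over the 24 animals), Ranbp9, a Ran-binding scaffold protein (1.40%, 0% to 3.01%), and Gbp6, an interferon-induced guanylate-binding protein (1.51%, 0% to 6.52%). These were picked by their values. No animal reached 7% at any of the 3. Others among the 20 lowest were start sites of Tmem176b, Tmem176a, Git2, Foxp2, Eci2, Lgals3bp and Zbtb20, at means of 2.11% to 3.86%. Of the 20 lowest, 11 stood within 2000 bp of an unmethylated CpG-rich start site, among them Mafg, Tmem176b, Tmem176a, Git2, Foxp2 and Lgals3bp, whereas Gbp6, Eci2 and Zbtb20 did not, and Ranbp9 stood 2036 bp from one.

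Secreted hepatocyte proteins had a CpG-poor promoter for 50 of the 94 listed genes (69 promoters). Their median was 20.3%, 33 were below 20% and 4 were at or above 80%. The lowest was Igf1, the growth factor that liver releases under growth hormone, at 2.01% ± 0.935 (SD, n = 24 animals; 0.400% to 4.45%), and this start stood 12 bp from an unmethylated CpG-rich one. Itih3, an inter-alpha-trypsin inhibitor heavy chain, was at 6.26% ± 3.17. Start sites within these genes were not all alike. The 2 highest were both of Cp (ceruloplasmin, the copper carrier of plasma), at 88.7% ± 2.56 and 91.8% ± 2.10.

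Metabolic enzymes and transporters of the liver were lower still. Among 27 promoters of 20 genes the median was 17.1%, 17 were below 20% and 2 at or above 80%. Sardh (sarcosine dehydrogenase) had 4 such promoters, at 2.67% ± 1.71, 4.65% ± 1.98, 10.5% and 17.5%, and Kynu (kynureninase) was at 6.45% ± 2.26. The highest was Asl (argininosuccinate lyase) at 96.5% ± 1.33. Families of drug and steroid metabolism (104 promoters, 88 genes) covered nearly the whole range, with a median of 44.9%, 23 below 20% and 14 at or above 80%. Fmo1 (5.95% ± 2.06), Sult1a1 (7.68% ± 2.69) and Ces2g (8.26% ± 2.76) were lowest, whereas Cyp2ab1 (91.0% ± 1.83) and Ces2h (91.9% ± 1.54) were highest. The male-biased list (10 promoters) had a median of 30.8% and the female-biased list (30 promoters) one of 40.4%.

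Most lists for other tissues had a median within 10 points of that of all CpG-poor promoters (79.5%), the exocrine pancreas list being lower. None of 1055 promoters of chemosensory receptors was below 20%, against 3.74% of all CpG-poor promoters, with a median of 76.3% and a range of 31.7% (Vmn2r49) to 94.8% (Olfr1157 and Olfr1193). Likewise none of 64 keratin and skin barrier (median 79.4%), 23 defensin (76.4%), 16 striated muscle (76.4%), 8 milk protein (73.8%) or 6 sperm and oocyte promoters (71.6%) was below 20%, although lists this short would hold few at the share of all CpG-poor promoters. Wap, the whey acidic protein of milk, was at 93.9% ± 1.45. For markers of liver cells other than hepatocytes the lists were as short (0 of 19 and 0 of 7 below 20%), and their counts do not set them apart from the 3.74%. Leukocyte markers (19 promoters, median 81.0%) ranged from 55.6% at Lyz2, the macrophage lysozyme, to 92.0% at Csf1r, the receptor of macrophage colony-stimulating factor. Kupffer and sinusoidal endothelial markers (7 promoters, median 83.1%) ranged from 68.2% at Clec4g to 87.9% at Clec4f. The plot by gene list shows the medians in order.

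**Figure D2:**
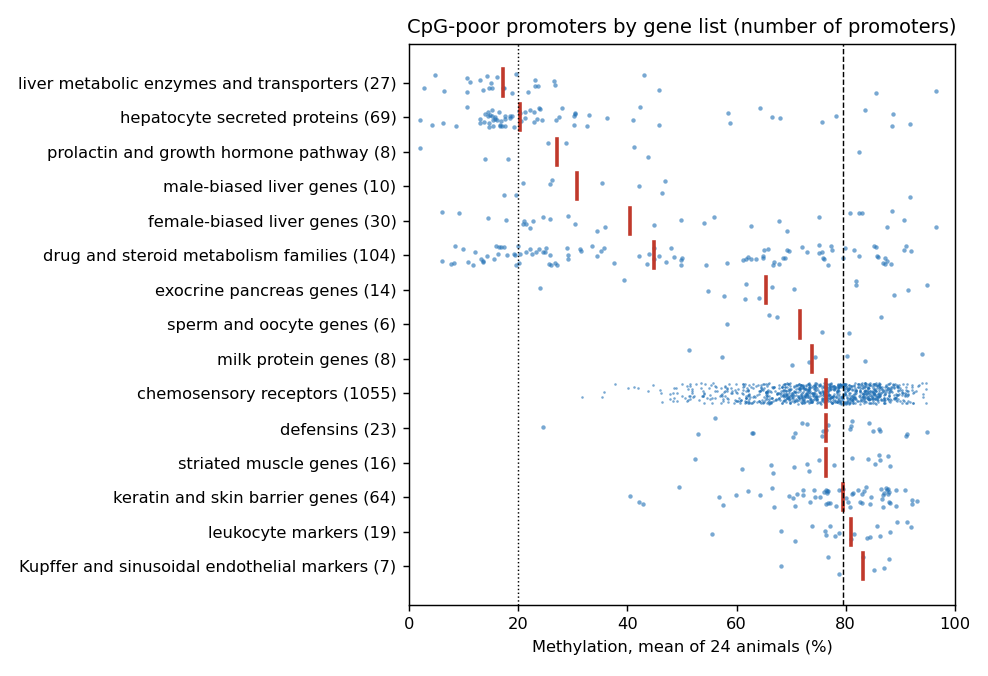
Methylation of CpG-poor promoters (x axis, %, mean of 24 animals) by gene list (y axis, with the number of promoters). Each point is a promoter, red bars are medians, the dashed line is the median of all 6391 (79.5%) and the dotted line 20%. Points below 20% appear in the lists of liver genes and of hormone signalling and in no other list.

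Pancreas genes covered a wide range. The 14 promoters had a median of 65.4%, with none below 20%, and lay between 24% and 94.9%, as the 23 defensin promoters did between 24.6% and 94.9%. Pnliprp1 was lowest at 24% ± 3.89, its CpGs being at 8.39% to 13.8% between 42 and 194 bases after the start and at 33.9% and 44.3% in the pair of CpGs of its stretch above, 201 and 199 bases before the start. At Ctrb1 (94.9% ± 1.70) all 6 CpGs were between 92.7% and 96.6%. In 100-bp steps along the promoter, the 69 promoters of secreted hepatocyte proteins were at 24.3% in the 100 bases after the start and at 39.1% between 400 and 500 bases before it, but at 26.6% between 400 and 500 bases after it. All 6391 promoters moved little over the same distance, with a minimum of 70.5% between 100 and 200 bases before the start and 76.9% between 300 and 400 bases after it.

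Short motifs were counted between 250 bases before and 50 after the start, on either strand. The HNF4 motif CAAAGTCCA was in 2.93% of the 239 unmethylated, 1.22% of the partly methylated and 0.513% of the methylated CpG-poor promoters, and in 0.457% of all 38273. The HNF1 motif GTTAATNAT was in 4.18%, 1.75% and 0.995% of the same 3 classes and in 0.601% of all promoters. For the forkhead motif TGTTTAC the shares were 6.28%, 5.43% and 4.08%, with 2.88% of all promoters. For TTGCNNAAT, of C/EBP factors, they were 2.93%, 4.41% and 3.59%, and 2.06% of all. CACGTG, which holds a CpG itself, was in 4.60%, 3.19% and 1.80%, below the 7.74% of all promoters. TATAAA, between 40 and 20 bases before the start on the strand that reads as the transcript, was in 3.35%, 4.08% and 2.82%, and 1.39% of all. A match is a description of these letters only.

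The comparison of B6 with C3 parents asks which promoters differ with the inbred genome. Calls needed an adjusted p below 0.05 (limma with Benjamini-Hochberg adjustment, over all 38273 promoters) and a difference of at least 20 points. Of the CpG-poor promoters, 25 of 6391 were called (0.391%), against 0.353% of all promoters, so that the share was near the background. B6 was higher at 10 (0.156%, against 0.0888% of all promoters) and C3 at 15 (0.235%, against 0.264%). Of the 25, 14 stood at the most upstream start site of their gene, against 56.3% of all 6391. The 6 animals of each strain did not overlap at 23 of the 25, which a call of this size all but requires, and at 284 of all 6391 (4.44%, against 4.83% of all promoters). In the range of 20% to 80% methylation, 23 of 3036 CpG-poor promoters (0.758%) and 98 of 4636 CpG-rich promoters (2.11%) were called, a difference that was not tested. At an adjusted p below 0.05 and any size, 700 CpG-poor promoters differed (against 9.51% of all promoters). Of these, 462 (7.23%, against 6.36% of all promoters) were higher in C3 and 238 (3.72%, against 3.14%) higher in B6.

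Clec3b was called with B6 higher. It was at 50%, 51.5% and 59.2% (lowest, median and highest) in the 6 B6 parents and at 7.69%, 10.8% and 15.7% in the 6 C3 parents, a difference of 42.1 points (log2 ratio 3.12 ± 0.17 SE, limma adjusted p = 4.02e-15). The strains did not overlap. Each of its 4 CpGs was lower in C3, at 4.93% against 33.2% at the first CpG of its stretch above and at 7.32% against 68.0% at the CpG 43 bases after the start. Havcr1, a receptor of phosphatidylserine on injured and immune cells, was at 54.3% ± 6.64 in B6 and 19.5% ± 7.17 in C3 (SD, n = 6 each), and the strains did not overlap (45.0% or more against 29.2% or less). Tnfsf10, the death ligand TRAIL, was at 32.0% ± 4.93 in B6 and 3.07% ± 1.80 in C3, where the highest of the 6 C3 animals had 5.77%. It was the 1 called promoter with a mean below 20% over the 24 animals.

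Enzymes were among the others with B6 higher. Shmt1, the serine hydroxymethyltransferase of the cytosol, was at 65.8% ± 8.78 in B6 and 31.2% ± 4.90 in C3. Alpl, the alkaline phosphatase of liver and bone, was at 42.5% ± 3.05 and 17.3% ± 5.12. Ceacam19, of the carcinoembryonic antigen family, was at 73.5% ± 4.16 and 41.9% ± 7.18. None of the 3 overlapped between the strains. Mup2, of the major urinary proteins, was at 66.3% ± 8.13 and 45.2% ± 6.76, but its family holds near-identical copies between which reads may be split, so that its value is uncertain. Mup1 and Fmo4 were also called with B6 higher, with ranges that overlapped.

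C3 was higher at promoters that include the following, none of them on the list of leukocyte or of Kupffer and endothelial markers. The MHC class II beta chain H2-Ab1 was at 13% ± 2.68 in B6 and 52.3% ± 9.82 in C3, the latter at 6.17 reads per CpG. Arhgdib, a GDP-dissociation inhibitor of blood cells, was at 53.0% ± 2.15 and 75.4% ± 4.34. Klra7, an NK cell receptor of a multigene family and therefore uncertain, was at 61.5% ± 6.28 and 85.3% ± 6.77. In all 3 the highest B6 animal was below the lowest C3 animal. Slamf9 (31.7% ± 5.14 against 53.8% ± 5.95) and Lpxn, an adaptor of the paxillin family (50.2% ± 5.96 against 77.4% ± 4.41), went the same way. The median over the 19 promoters of leukocyte markers was 77.9% to 81.2% in the 6 B6 and 81.2% to 85.1% in the 6 C3 animals, ranges that just overlapped, 4 of 19 passed the adjusted p, all higher in C3 (against 7.23% of all CpG-poor promoters), and the part of leukocytes in these results was not tested. Over the 7 Kupffer and endothelial promoters the medians overlapped (77.7% to 84.1% and 82.4% to 86.4%).

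Genes of other functions were among those with C3 higher too. Cyp4a14, a fatty acid hydroxylase induced in fasting, was at 50.6% ± 6.67 in B6 and 75.6% ± 4.03 in C3, with 39.8% to 58.8% and 70.8% to 80.6% in single animals. Sfta2, a surfactant-associated protein (46.6% ± 8.73 and 78.0% ± 4.56), Polr1a, a subunit of RNA polymerase I (63.8% ± 4.39 and 87.0% ± 2.72), and the bitter taste receptor Tas2r122 (52.7% ± 4.79 and 75% ± 3.59) did not overlap either. Spp1 (osteopontin), Camk2b and Zfp592 were called as well, with C3 at 75.1%, 51.5% and 91.9% and B6 at 54.1%, 31.4% and 71.7%, respectively. Coil, the marker protein of Cajal bodies, was at 68.8% ± 2.08 in B6 and 92.5% ± 3.68 in C3, but at 171 reads per CpG in B6 and 18.5 in C3.

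The largest difference of all was at 4930481A15Rik, where C3 parents were at 68.9%, 70.4% and 77.2% (lowest, median, highest) and B6 parents at 1.39%, 7.22% and 36.7%. The 6 B6 animals were spread widely, the 3 dams at 20.9% ± 17.9 and the 3 sires at 5.91% ± 3.86. No listed SNV stood in its window. Its F1 animals differed by cross, at 61.4% ± 9.26 in B6C3F1 (50.8% to 73.5%) and 79.0% ± 3.00 in C3B6F1 (74.2% to 83.1%; SD, n = 6 each). The crosses did not overlap, a difference that was not tested.

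Over both crosses together the F1 mean fell between the means of the strains at all 25 promoters, and by cross it did so at 25 in B6C3F1 and at 24 in C3B6F1, 4930481A15Rik being the exception. The F1 mean of both crosses had a median position of 0.554 on a scale from C3 (0) to B6 (1), and 4930481A15Rik, at 0.0323, was the lowest. The highest position was 0.855. An F1 level pools the reads of both alleles, so that its position also depends on how many reads each allele has. For Clec3b the 12 F1 animals were at 33.1% ± 6.20 (23.8% to 45.2%), outside the range of either strain. Of the 25, 19 (76.0%) had an SNV between the strains within 500 bp, against 33.2% of all CpG-poor promoters. None of their CpGs was itself an SNV, which was fixed in advance, since only CpGs present in both strains are listed. Reads were aligned to mm9, which is close to B6, and 9 of the 25 (among them Havcr1, Shmt1, Tnfsf10, Mup2, H2-Ab1, Klra7, Coil and Polr1a) had a depth that differed more than 2 times between the strains, so that 16 calls remained without them. Without CpGs within 10 bp of an SNV, 21 were called, 19 of them among the 25, and Clec3b, Havcr1 and Shmt1 were among those that could then not be fitted.

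**Figure D3:**
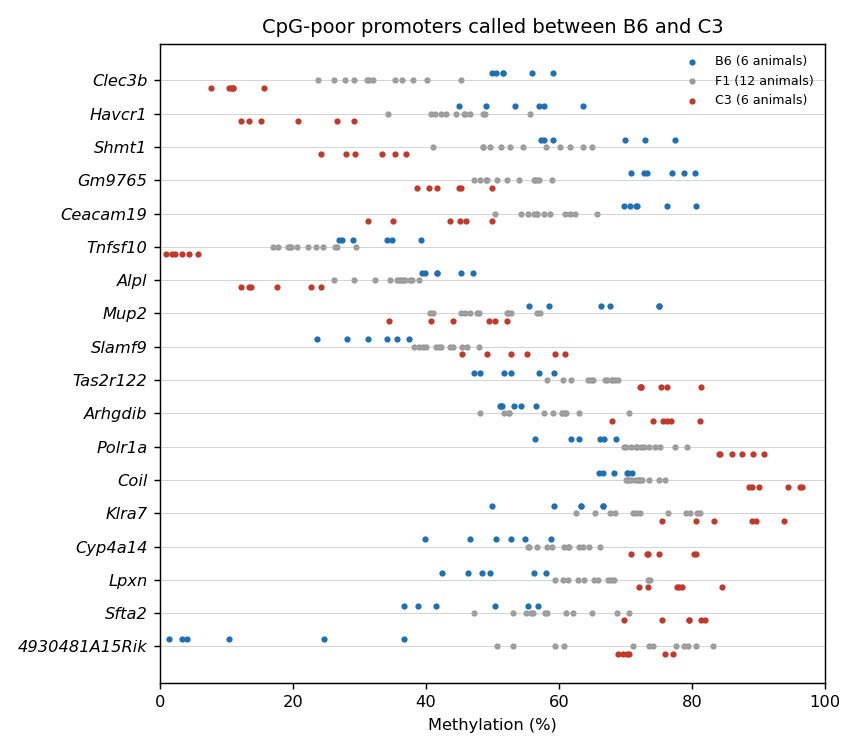
Methylation (x axis, %) of the 18 called promoters named by rule (y axis), ordered by the difference between strains. Each point is an animal, of B6 (blue, 6), F1 (grey, 12) and C3 (red, 6). No B6 animal overlaps a C3 animal, and at 4930481A15Rik the F1 animals are spread from 50.8% to 83.1%, on both sides of the C3 animals.

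Low CpG-poor promoters differed by strain in the opposite direction to CpG-poor promoters as a whole, whose median difference of B6 minus C3 was -0.919 points. Between 204 and 254 promoters were below 20% in each B6 parent and between 270 and 305 in each C3 parent. Of the 239 promoters below 20% in the mean, 47 were higher in B6 and 5 in C3 at an adjusted p below 0.05 (median difference 2.28 points). Of all promoters, 3.14% were higher in B6 and 6.36% in C3. In either direction 52 of the 239 (21.8%) passed, against 1629 of 22852 CpG-rich promoters below 20% (7.13%), whose direction was not counted. The 2 sets were not at like levels, as 66 of the 239 and 20813 of the 22852 were below 10%. These shares therefore do not set low CpG-poor promoters apart. The 73 on a liver list (9 and 0, median 2.78 points) and the 166 on none (38 and 5, median 2.15 points) both had a positive median, so that the direction was not particular to liver genes. Over the 69 promoters of secreted hepatocyte proteins the median difference was 3.61 points, and the median of these promoters was 19.7% to 26.2% in the 6 B6 and 16.5% to 19.1% in the 6 C3 animals. At an adjusted p below 0.05, 15 of the 69 were higher in B6 and 1 was higher in C3, against 238 and 462 of all 6391. None reached a difference of 20 points. Among metabolic enzymes and transporters 4 of 27 were higher in B6 and 1 in C3 (median difference 3.13 points), and among families of drug and steroid metabolism 12 of 104 were higher in B6 and 7 in C3 (median difference 0.418 points). The shares of all CpG-poor promoters were 3.72% higher in B6 and 7.23% higher in C3.

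The comparison of sires with dams asks which promoters differ between breeding males and females. It called 25 CpG-poor promoters (0.391%) against 0.0784% of all promoters, since 5 of the 31882 CpG-rich promoters were called. Sires were higher at 13 (0.203%, against 0.0418% of all promoters) and dams at 12 (0.188%, against 0.0366%). In none of the 25 did the 6 sires overlap the 6 dams, as at 88 of all 6391 (1.38%, against 0.598% of all promoters), and 2 (8.00%) had an SNV within 500 bp. Depth did not differ more than 2 times at any of the 25, and 18 stood at the most upstream start site of their gene, against 56.3% of all 6391. At any size, 100 CpG-poor promoters passed the adjusted p (1.56%, against 0.596% of all promoters). No CpG-poor promoter was called for a difference of the sex effect between the strains (against 0.00523% of all promoters; 437 had an unadjusted p below 0.05 in limma, and edgeR called 0).

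Of the 10 promoters of male-biased liver genes, 4 were called, at the 3 genes Slco1a1, Cyp2d9 and Mup7, all lower in sires. Slco1a1, an organic anion transporter of the hepatocyte membrane, was at 5.71%, 19.6% and 24.2% (lowest, median, highest) in sires and at 39.7%, 53.0% and 58.0% in dams, a difference of -33.9 points (log2 ratio -2.32 ± 0.28 SE, limma adjusted p = 2.47e-05). Cyp2d9, a steroid hydroxylase of male liver, was at 15.6%, 25.7% and 41.9% in sires and at 47.1%, 58.8% and 69.4% in dams (limma adjusted p = 1.79e-07). All 6 sires lay below all 6 dams at both genes. Mup7, a major urinary protein made mostly by males, was at 32.2% ± 4.84 in sires and 60.2% ± 3.83 in dams at 1 start site and differed by -25.5 points at another that shares its 6 CpGs. Its family is multicopy and the value uncertain.

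The largest difference was at 2810007J24Rik, which was nearly unmethylated in sires. Its 6 sires were at 9.80% to 16.7% (median 13.5%) and its 6 dams at 57.7% to 72.0% (median 64.5%), 51.0 points apart (log2 ratio -3.50 ± 0.25 SE, limma adjusted p = 1.72e-09). Slc22a28, an organic anion transporter, was at 37.1% ± 4.68 in sires and 67.5% ± 3.26 in dams. Nat8, an N-acetyltransferase, was at 46.7% ± 5.54 and 71.7% ± 3.86, and the promoter shared by its neighbours Cml5 and Gm11128, of the same gene family, at 48.7% ± 5.53 and 75.4% ± 5.26. Reads may be split between copies of this family, so that these values are uncertain and may not be separate measurements. Hsd3b3, a hydroxysteroid dehydrogenase, was at 37.4% ± 5.59 and 59.3% ± 3.89. The remaining calls were 4833442J19Rik, 4930548G14Rik and 1110018G07Rik, with sires 20.9 to 29.6 points lower.

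Several cytochromes P450 were among the calls with dams lower. Cyp3a41b, a steroid hydroxylase found almost only in females, was at 63.2%, 67.2% and 71.4% (lowest, median, highest) in sires and at 18.2%, 25.9% and 32.3% in dams, 42.5 points apart (log2 ratio 2.57 ± 0.19 SE, limma adjusted p = 1.99e-10). At the first CpG of the Cyp3a41b stretch above, 164 bases before the start, sires were at 68.7% ± 9.88 and dams at 37.2% ± 10.7, and at the second, 99 bases before it, at 49.5% ± 12.5 and 13.6% ± 9.0. Cyp3a41a, of the same gene family, was at 58.9% ± 4.35 and 21.1% ± 5.87. Cyp2a4, a testosterone hydroxylase, was at 83.8% ± 3.44 and 49.2% ± 10.7, with 79.5% or more in sires and 63.9% or less in dams. Cyp2b13 was at 83.7% ± 4.66 and 53.7% ± 11.5, the dams ranging from 41.2% to 66.7%. All 4 belong to multigene families, in which values are uncertain.

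Fmo4, a flavin monooxygenase, was at 84.7% ± 4.74 in sires and 49.4% ± 23.8 in dams. Dams of the strains stood apart at Fmo4, at 69.8% ± 3.04 in B6 and 28.9% ± 12.4 in C3 (SD, n = 3 each), while sires were at 86.9% ± 5.13 and 82.6% ± 3.98. The test of this difference between strains was not passed (limma adjusted p = 0.534).

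Serpina6, which encodes corticosteroid-binding globulin, was at 78.8% ± 1.76 in sires and 46.1% ± 4.47 in dams. It was the 1 promoter of the secreted hepatocyte list called here, and its start site lies 3000 bp downstream of the most upstream one of the gene. Ghr, the growth hormone receptor, was at 86.3%, 93.2% and 100% in sires and at 41.7%, 53.3% and 67.9% in dams (39.0 points, log2 ratio 3.55 ± 0.34 SE, limma adjusted p = 1.60e-06). This start site, at chr15:3421644 on the - strand, lies 111586 bp downstream of the most upstream of the gene's 5 annotated start sites. Of its 4 CpGs, 3 lie in the exon that starts there, chr15:3421400-3421644, and none in the 250 bases before it, so no stretch is printed for it. Rdh1 and Rdh9, retinol dehydrogenases, were at 55.5% ± 2.72 and 64.6% ± 3.26 in sires and at 33.8% ± 2.27 and 43.5% ± 2.52 in dams. Their start sites are 66 bp apart and share 8 of 9 CpGs, so that they are a single measurement. Abp1, a diamine oxidase, D830013O20Rik and BC089597 were called as well, 21.7 to 26.5 points lower in dams.

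The lists of sex-biased liver genes were chosen with such results known and are given as a description. Of the 30 promoters of female-biased genes 5 were called, all lower in dams. The other 6 male-biased and 25 female-biased promoters were not called, such as Hsd3b5 (17.5% ± 3.43 over 24 animals, sires and dams 0.639 points apart), whose enzyme is typical of male liver, Ugt2b1 (0.134 points apart) and Fmo1 (0.0310 points apart). The median difference of sires minus dams was -1.89 points over the male-biased and 3.10 points over the female-biased promoters, against 0.797 points over all 6391.

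F1 sons and daughters carry the same pair of genomes, and their comparison asks whether a sex difference is present where the females had not been bred. The comparison called 14 CpG-poor promoters (0.219%), against 0.0392% of all promoters, with sons lower at 11 (against 0.0314% of all promoters) and daughters lower at 3 (against 0.00784%). It shares no animal with that of sires and dams. All 14 were also called between sires and dams in the same direction, so that the 14 are 100% of the F1 calls and 56.0% of the parental calls. Of the 12 promoters lower in sires, 11 were called lower in sons. Of the 13 lower in dams, 3 were called lower in daughters, 11 had the same sign in F1, and Rdh9 and Ghr did not. A call also needed 20 points. Cyp3a41a (18.1 points, limma adjusted p = 0.000363) and Serpina6 (10.6 points, limma adjusted p = 0.00366) passed the adjusted p below that limit. Fmo4 (19.7 points, limma adjusted p = 0.0775) and Cyp3a41b (14.3 points, limma adjusted p = 0.0636) did not pass it. Rdh1 and Rdh9 are counted apart among the 13, although they are a single measurement.

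Promoters lower in males were examined in F1 animals first. At 2810007J24Rik sons were at 6.34%, 14.1% and 28.9% (lowest, median, highest) and daughters at 51.3%, 54.7% and 62.7%, 40.5 points apart (log2 ratio -2.87 ± 0.25 SE, limma adjusted p = 9.80e-08). Slco1a1 was at 22.3% ± 5.68 in sons and 48.4% ± 9.37 in daughters, and Cyp2d9 at 29.7% ± 7.26 and 54.3% ± 6.73. Mup7 was at 31.9% ± 6.26 and 60.8% ± 4.02. Sons did not overlap daughters at any of these 4, as at 78 of all 6391 (1.22%, against 0.517% of all promoters). Over the 12 promoters lower in sires the median difference was -27.4 points between sires and dams and -25.4 points between sons and daughters. Between dams and daughters it was 2.97 points. The 12 were selected by the parental difference, which enlarges the parental median but not that of the F1 animals. The dams that helped select them also enter the difference from daughters. Single promoters varied, as Hsd3b3 differed by -21.9 points between sires and dams and by -10.3 points between sons and daughters (limma adjusted p = 0.169).

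Among the promoters lower in females, Cyp2b13 was at 80.5% ± 4.43 in sons and 32.9% ± 5.59 in daughters, the largest F1 difference (47.6 points, log2 ratio 3.03 ± 0.27 SE, limma adjusted p = 4.95e-07). In the 250 bases before its start the 1 CpG, shown above, was at 63.7% ± 8.75 in sons and 18.3% ± 6.02 in daughters, and at 40.3% ± 15.8 in dams. Over the whole promoter daughters were 20.9 points below dams, which did not pass the test (limma adjusted p = 0.0718). Cyp2a4 was at 81.3% ± 4.77 in sons and 56.7% ± 2.25 in daughters. Over the 13 promoters lower in dams the median difference was 32.7 points between sires and dams and 14.3 points between sons and daughters. Between dams and daughters it was -11.0 points. The 13 were selected by the difference of these dams from the sires, which enlarges the first median and also bears on the last. How much smaller the F1 difference is cannot be read from these medians.

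**Figure D4:**
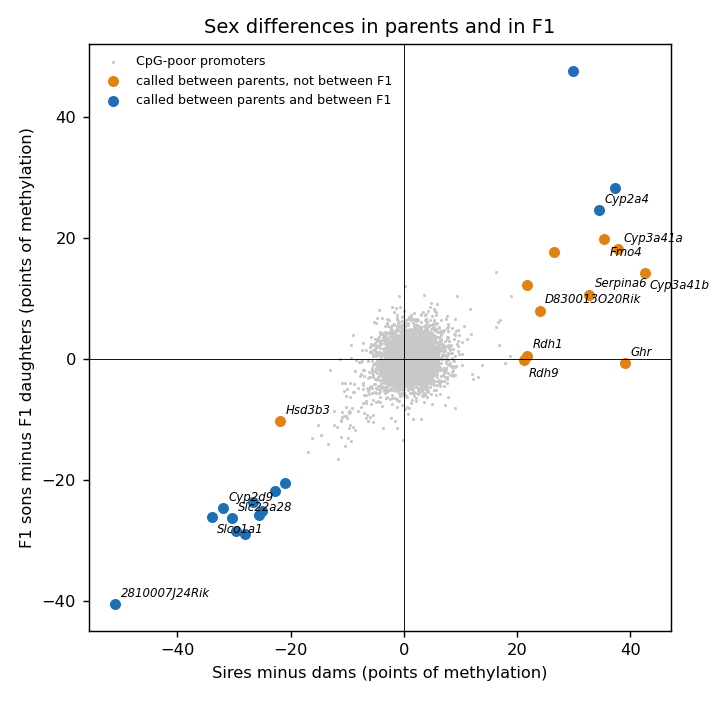
Difference of methylation between sires and dams (x axis, points) and between F1 sons and daughters (y axis, points) for 6391 CpG-poor promoters, as means of 6 animals each. Blue marks the 14 promoters called in both comparisons and orange the 11 called between the parents alone. Ghr, Rdh1 and Rdh9 lie near 0 on the y axis, and 2810007J24Rik is at the lower left.

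The comparison of dams with F1 daughters asks what differs between females that have bred and females that have not. It called 4 CpG-poor promoters (0.0626%), against 0.0105% of all promoters, and all 4 were lower in dams. At any size, 11 CpG-poor promoters passed the adjusted p (0.172%, against 0.149% of all promoters), a share near the background, and 10 of them were lower in dams (against 0.11% of all promoters).

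Ghr differed most. The 6 dams were at 41.7%, 53.3% and 67.9% (lowest, median, highest), and the 6 daughters at 89.8%, 91.0% and 96.0%, 37.8 points apart (log2 ratio -3.12 ± 0.34 SE, limma adjusted p = 4.25e-05). Dams stood alone, since the 6 sires were at 93.0% ± 4.51 and the 12 F1 animals of both sexes at 91.4% ± 2.27. B6 dams (62.8% ± 6.18) and C3 dams (45.0% ± 5.00) were both low (SD, n = 3 each). The 3 CpGs of the exon were at 33.3% to 42.5% in dams and at 82.8% to 95.6% in daughters, and the fourth, 491 bases after the start, at 76.2% and 95.6%.

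Cyp3a41b was at 25.0% ± 5.30 in dams and 46.5% ± 8.56 in daughters, with 32.3% or less against 38.1% or more. Rdh1 was at 33.8% ± 2.27 and 53.9% ± 3.91, and Rdh9, which shares its CpGs, at 43.5% ± 2.52 and 63.6% ± 4.03. Dams and daughters did not overlap at any of the 4 promoters, as at 32 of all 6391 (0.501%, against 0.353% of all promoters). The differences at Rdh1 and Rdh9, of 20.1 points each, stood just above the limit of 20 points, and leaving out 1 C3B6F1 daughter (replicate 2) left 2 calls. Leaving out B6 dam replicate 3, B6C3F1 daughter replicate 3 or C3B6F1 daughter replicate 3 each left 3 calls, 2 of them among the 4. The last of these daughters had the highest Cyp3a41b value, 62.3%, against 38.1% to 46.4% in the other daughters. Of the other promoters that passed the adjusted p, Cyp3a41a (-19.7 points) and Serpina6 (-19.2 points) fell just short of the limit. Cd36, a fatty acid transporter, was at 42.3% in dams and 57.1% in daughters. Pi4ka, a phosphatidylinositol kinase (67.9% and 82.4%), Agtpbp1 (35.8% and 49%) and BC017612 (60.2% and 74.5%) were also lower in dams, and Coil was higher (79.2% and 72.4%), where the strains differ in depth. The start sites of Cd36, Pi4ka and Agtpbp1 lie 39167, 55482 and 52021 bp downstream of the most upstream start of their gene.

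Whether a sex difference differed between the generations was tested by the difference of the parental and the F1 sex differences, a contrast added after the data were seen, which shares its animals with those above. It called 5 CpG-poor promoters (0.0782%), against 0.0131% of all promoters, namely Ghr, Serpina6, Cyp3a41b, Rdh1 and Rdh9. Sires exceeded dams by 39.0 points at Ghr and by 21.7 points at Rdh1, whereas sons exceeded daughters by -0.652 and 0.551 points. At Serpina6 the differences were 32.7 and 10.6 points and at Cyp3a41b 42.5 and 14.3 points. In every 1 of the 5 the dams were the low group. The other members of the list of prolactin and growth hormone signalling (8 promoters, 5 genes) showed no call in any comparison. A list this short would hold few, as 0.0626% of all CpG-poor promoters were called between dams and daughters. Among them 1 start site of Prlr, the prolactin receptor (6 CpGs), was at 18.2% ± 3.96 over the 24 animals. Dams and daughters were 2.83 points apart there. The study reports several regions of Prlr with more methylation in males than in females, and this window does not speak for them. A second start of Igf1 was at 13.9% ± 3.40.

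**Figure D5:**
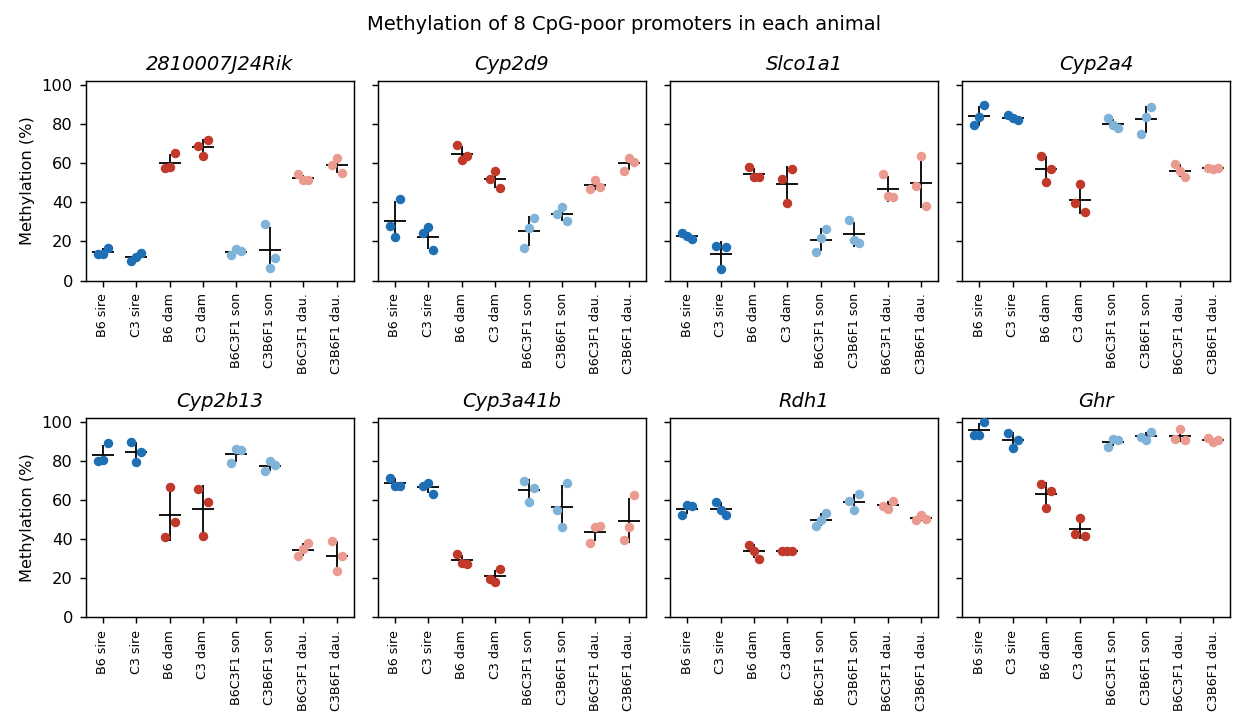
Methylation (y axis, %) of 8 CpG-poor promoters in each animal of the 8 groups (x axis, 3 points each). Horizontal bars are group means and vertical bars SDs. 2810007J24Rik, Cyp2d9 and Slco1a1 are lower in males and Cyp2a4 and Cyp2b13 lower in females of both generations, while at Ghr and Rdh1 the dams alone are low.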

How the data were processed

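Whole liver of 24 mice was measured by whole-genome bisulfite sequencing. The authors aligned reads to mm9 with Bismark 0.7.8 and Bowtie 0.12.8, removed duplicates and deposited, per CpG and animal, counts of methylated and unmethylated reads with both strands together; CASAVA 1.8.2 and Picard 1.110 are also named in the submitters' processing notes. CpGs present in both strains are listed. All 48 count columns were used, and 12 ChIP and input samples were not analysed here.

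Counts were summed over the CpGs within 500 bp of each start site (GENCODE M1), with at least 30 counts in each animal, and given as percent methylation. Total counts per animal were 365740739 to 619888157. Groups came from the labels. The log2 ratio of methylated to unmethylated counts (1 added to each) was fitted with 8 group means in limma 3.58.1 (R 4.3.3; trend and robust options) over all 38273 promoters, with Benjamini-Hochberg adjustment. A call needed an adjusted p below 0.05 and 20 points. This fit was tested on simulated data. For each animal's median over the promoters an exact permutation test was used (scipy 1.17.1, two-sided), also within strain, sex or cross. edgeR 4.0.16 and other filters, windows and thresholds were alternatives. Up to 10 called promoters per direction, 1 per gene, without overlap and with at least 10 reads per CpG in both groups, were named by rule, and others were named after their values were seen. Some promoters that the rule selects are not reported here. The members and gene lists were chosen with earlier results of these data known. The 3 families sampled per cross are not given as a term in the fit, because the labels do not name them. Duplicates were removed, but a read that covers several CpGs of a promoter adds a count at each of them. The counts of a promoter are therefore not independent molecules, and counting error is a lower limit.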

Additional observations from a re-analysis of the deposited data

Results flagged for a closer look

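Of 114 groups of 6 animals, at the named promoters and for the medians per animal, 3 held an animal far from the other 5, and chance gives about 1 in 20 groups. At Slco1a1, 1 C3 dam (replicate 2) was at 39.7%, against 51.9% to 58.0% in the other dams. At Ghr, 1 B6C3F1 daughter (replicate 2) was at 96.0%, against 89.8% to 91.9%. At Cyp3a41b, 1 C3B6F1 daughter (replicate 3) was at 62.3%, against 38.1% to 46.4%.

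The sex difference of the parents exceeded that of the F1 animals at 5 promoters, by the test of the difference itself. The excess was 39.7 points at Ghr (limma adjusted p = 0.00158), 28.3 points at Cyp3a41b (limma adjusted p = 0.00186), 22.1 points at Serpina6 (limma adjusted p = 0.00062), 21.2 points at Rdh1 (limma adjusted p = 0.00062) and 21.4 points at Rdh9 (limma adjusted p = 0.00139). Breeding, inbreeding, generation and housing cannot be told apart in this contrast.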

How the results depend on the processing

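With at least 100 counts in each animal, which left 4107 promoters, calls numbered 9 by strain, 12 between sires and dams, 2 between dams and daughters, 7 between sons and daughters and 3 between generations. At 10 points they numbered 180, 60, 10, 40 and 9, and at 30 points 8, 11, 1, 2 and 1. Strain calls were 38 with no count minimum, 16 with depth within 2 times, and 15 with 1 start site per gene, which gave 3 between generations. Promoters below 10% in the mean numbered 66, those below 20% in each animal 103, and with 1 start site per gene 128. With CpGs within 250 bp, which left 5077 promoters, 298 (5.87%) were below 20%, against 203 of the same promoters in the wider window, and 26 strain calls shared 14 with the 25 reported, of which 18 could be tested. Leaving out 1 animal in turn gave 22 to 31, 24 to 26, 2 to 6, 12 to 15 and 5 to 6 calls in the same order, 0 for the interaction, and 236 to 246 unmethylated promoters. edgeR called 25, 25, 6 and 14 promoters by strain, sires and dams, dams and daughters, and sons and daughters. With labels permuted within strain, the difference of 0.983 points between the medians of sires and dams passed the exact test. The labels do not say that a replicate number marks a family. Deviations of same-numbered animals had correlations of -0.0369 to 0.0727, and 16 of 24 animals had their best match in another group under their own number, a hint from the data and not from the design. Each group holds 3 numbers, of which 1 would be the same, and the excess over chance was not tested. The numbers were not taken as pairs, and a replicate block gave 25, 25, 4, 14 and 0 calls, the last for the interaction. Of 1912 alternative values of 55 named differences, 59 fell below a limit, 34 of them where the limit was raised to 30 points, and 0 reversed. These promoters were named for groups that did not overlap, and many settings keep the same difference, so that a reversal could hardly occur. The causes were not tested. Counting error at this depth, 2.87 points at the median promoter, limits how small a difference could be seen.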

Other observations

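At Rdh1 the crosses differed in direction between the sexes. B6C3F1 sons were at 49.9% and daughters at 57.2%, and C3B6F1 sons at 59.0% and daughters at 50.6% (means of 3 animals), a difference that was not tested. Defb1, a defensin, was at 24.6% ± 6.89 over the 24 animals and -16.1 points apart (B6 minus C3), and Lao1, of the milk protein list, at 70.1% ± 7.98 and 18.7 points higher in B6, both short of 20 points.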
